A study of Mus musculus with 6 samples.

Results

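miR-149, miR-186 and miR-204 (Mir149, Mir186 and Mir204 in the files) are microRNAs (miRNAs) whose hairpins gave almost all of their reads from the 5p arm and almost none from the 3p arm in the mouse heart. They were chosen by name, as hairpins at a single locus with over 1000 reads of the 5p arm per read of the 3p arm, so the arm ratio itself is a description here and was not tested. The rule takes both arms of the 3 hairpins, which are 6 of the 1026 sense entries and of the 1102 entries in all. Small RNA was sequenced from the hearts of 6 male, wild-type mice of the strain C57BL/6J at an age of 18 weeks, with 1 library each, called here heart 1 to heart 6 after the labels' replicate numbers. C57BL/6J is a common inbred laboratory strain. The hearts form 1 group with no treatment, and the labels call the tissue whole heart while their protocol describes the tips of the ventricles. The libraries held 3966169 to 6007322 counts.

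A miRNA hairpin is cut by Drosha and Dicer into a short duplex of a 5p and a 3p strand. An Argonaute protein keeps one strand, the guide, and the other, the passenger, is usually degraded. Loading is known to favour the strand whose 5′ end is less tightly paired in the duplex and begins with U or A. The guide finds its target mRNAs mainly through its seed, bases 2 to 8. miR-204 is best known from the retinal pigment epithelium and the choroid plexus, and miR-186 is found in many tissues. All of the 3 hairpins lie inside introns of protein-coding genes and on the same strand as the gene.

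The hairpins are shown because the finding lies in the unequal use of their arms. Each is written 5′ to 3′ in lower case with both arms, as the count files place them, in capitals, from RefSeq on GRCm38.p6.
miR-149 hairpin: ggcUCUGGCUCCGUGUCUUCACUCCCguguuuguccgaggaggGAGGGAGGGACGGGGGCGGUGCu
miR-186 hairpin: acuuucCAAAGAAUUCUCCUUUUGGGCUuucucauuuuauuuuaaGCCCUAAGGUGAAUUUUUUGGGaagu
miR-204 hairpin: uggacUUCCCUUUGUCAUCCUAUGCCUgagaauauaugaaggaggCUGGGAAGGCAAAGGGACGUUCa

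The mature arms follow, with the seed in capitals. They are shown to compare the strand that was read with the one that was nearly absent.
miR-149-5p: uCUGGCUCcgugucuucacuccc
miR-149-3p: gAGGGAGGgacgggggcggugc
miR-186-5p: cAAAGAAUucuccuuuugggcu
miR-186-3p: gCCCUAAGgugaauuuuuuggg
miR-204-5p: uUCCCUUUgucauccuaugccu
miR-204-3p: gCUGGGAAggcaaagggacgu

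RefSeq and the count files placed 5 of these 6 arms at the same bases. The exception was miR-204-3p, which RefSeq gives at chr19:22750649-22750669 and the files at chr19:22750650-22750671, on the plus strand. The span of the files reads cUGGGAAGgcaaagggacguuc, so its seed is shifted by 1 base. Whether reads that begin 1 base earlier were counted for this arm is not given in the sources used here. Of the 1026 sense entries, 752 had the exact span of a RefSeq mature miRNA, so miR-204-3p is not alone in lacking one.

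The miR-149 hairpin lies at chr1:92850378-92850443 (GRCm38, plus strand) in an intron of Gpc1, which encodes the heparan sulfate proteoglycan glypican-1. It was intronic in the only annotated Gpc1 transcript that spans it, 18280 bases from the nearest exon upstream and 2903 from the nearest downstream. The miR-186 hairpin lies at chr3:157544279-157544349 (plus strand) in Zranb2, which encodes a zinc finger protein of RNA splicing, and was intronic in 6 of 6 transcripts that span it, with exons 1034 bases upstream and 614 downstream. The miR-204 hairpin lies at chr19:22750605-22750672 (plus strand) in Trpm3, which encodes a cation channel, and was intronic in 18 of 18 transcripts, 759 and 15961 bases from the nearest exons. The locations thus share an intronic position in the sense orientation, at quite different distances from the flanking exons.

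miR-186-5p was the most abundant of the 3 guides. Its counts of reads were 14043, 14816, 12345, 11152, 16560 and 15031 in hearts 1 to 6, equal to 2949, 2983, 2921, 2812, 2757 and 2683 CPM (counts scaled to a library of 1000000 counts). Heart 6 was the lowest and heart 2 the highest, 1.11-fold apart. The mean was 2851 ± 119 CPM (SD, n = 6), or 0.285% of the counts, which placed it 37th of 975 mature miRNAs with a read.

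miR-149-5p had 4301, 4512, 4340, 3746, 5312 and 5128 reads in hearts 1 to 6, or 903, 908, 1027, 944, 884 and 915 CPM. Heart 3 stood highest and the other hearts lay within 884 to 944 CPM. The mean was 930 ± 51.1 CPM (SD, n = 6), the 60th place by mean level.

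miR-204-5p had 1360, 1601, 1564, 1400, 2281 and 1943 reads, or 286, 322, 370, 353, 380 and 347 CPM. It was lowest in heart 1 and highest in heart 5, and this range of 1.33-fold was the widest of the 3 guides. Its mean was 343 ± 34.4 CPM (SD, n = 6), the 80th place.

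The order of the guides was the same in every heart. miR-186-5p exceeded miR-149-5p in 6 of 6 hearts by 3.07 ± 0.182-fold (SD), and miR-149-5p exceeded miR-204-5p in 6 of 6 by 2.73 ± 0.272-fold. The ranges of the 3 guides over the hearts did not overlap. Adapters join some RNA ends more readily than others, and these folds between different miRNAs are ratios of reads, not of molecules. In whole tissue, fewer cells that make a miRNA and less of it per cell cannot be told apart.

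**Figure D1:**
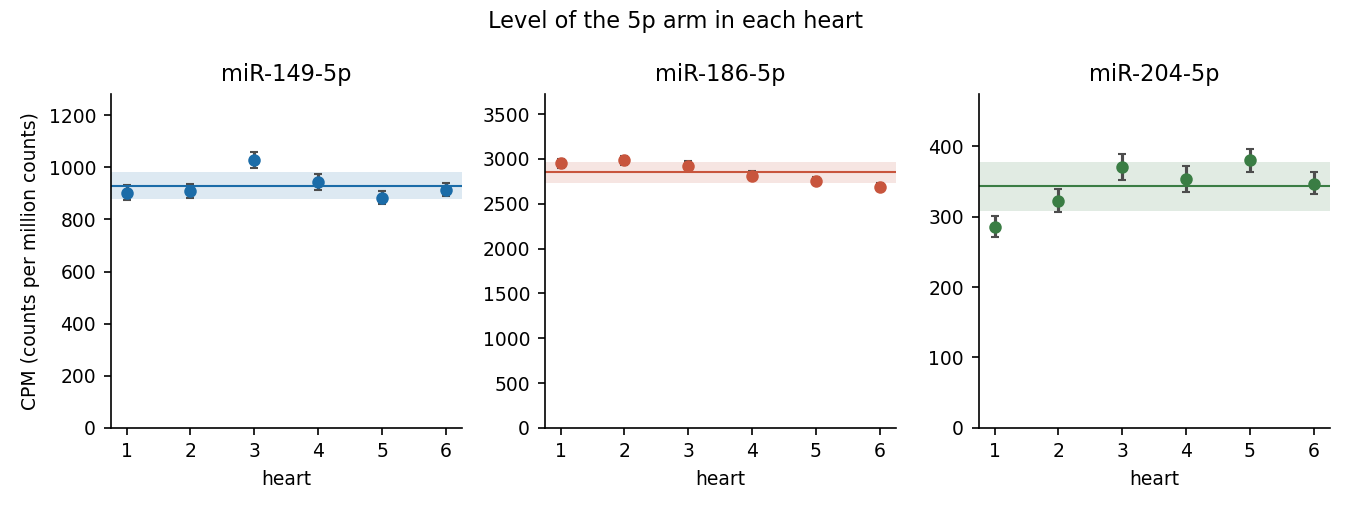
Level of each 5p arm (y axis, CPM) in hearts 1 to 6 (x axis), with exact Poisson 95% intervals that cover counting error only; the line and band are the mean and SD over the 6 hearts. Heart 3 stands above the others for miR-149-5p at 1027 CPM, and heart 1 below them for miR-204-5p at 286 CPM.

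The 3p arms were close to the limit of detection. miR-149-3p had 0, 1, 2, 0, 0 and 0 reads in hearts 1 to 6, and miR-204-3p had 0, 2, 0, 0, 0 and 2. miR-186-3p had 10, 8, 7, 8, 12 and 17 reads, so it alone was read in all hearts. Pooled over the libraries, miR-149-3p stood at 0.102 CPM (exact Poisson 95% interval 0.0209 to 0.297), miR-204-3p at 0.135 CPM (0.0369 to 0.347) and miR-186-3p at 2.10 CPM (1.61 to 2.69). The reads carried no molecular identifiers, so all intervals and limits cover counting error only.

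miR-149 had the largest 5p excess of the 3 hairpins. Over the 6 hearts it gave 27339 reads of 5p and 3 of 3p, a ratio of 9113 (exact binomial 95% interval 3118 to 44193). The 2 reads of heart 3 carry much of that denominator, and without heart 3 the ratio was 22999. In heart 1, the count was 0 of 4301 reads, which allows a share of up to 0.0698% for the 3p arm, and in hearts 4, 5 and 6 the limits were 0.0801%, 0.0565% and 0.0585%. These limits are 3 counts of the total, and the exact binomial intervals drawn in the plot of 3p shares reach a little higher, to 0.0857% in heart 1. The shares in hearts 2 and 3 were 0.0222% and 0.0461%, below each of these limits, so the hearts with and without a 3p read could not be separated at this depth.

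miR-204 gave 10149 reads of 5p and 4 of 3p, a ratio of 2537 (991 to 9314). It has the fewest reads of the 3, and the interval reaches just below 1000. The interval does not cover 3p reads that may have been missed at the shifted span of miR-204-3p. Without heart 2 the ratio was 4274, and without heart 6 it was 4103. The 4 hearts with 0 reads of 3p allow shares of up to 0.132% to 0.221%, against shares of 0.125% in heart 2 and 0.103% in heart 6. These limits lie above the pooled share of 0.0394% and above the shares of hearts 2 and 6, so hearts with and without a 3p read could not be told apart at 1360 to 2281 reads each.

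miR-186 gave 83947 reads of 5p and 62 of 3p, a ratio of 1354 (1056 to 1766). Its interval lies below that of miR-149 and overlaps that of miR-204. The 3p share was 0.0712%, 0.0540%, 0.0567%, 0.0717%, 0.0724% and 0.113% in hearts 1 to 6, a mean of 0.0731% ± 0.0211 (SD, n = 6). Heart 6 was the highest, and its exact interval (0.0658% to 0.181%) overlapped those of the other 5 hearts. As single libraries, 5 hearts had a ratio above 1000, between 1380 and 1852, and heart 6 had 884.

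**Figure D2:**
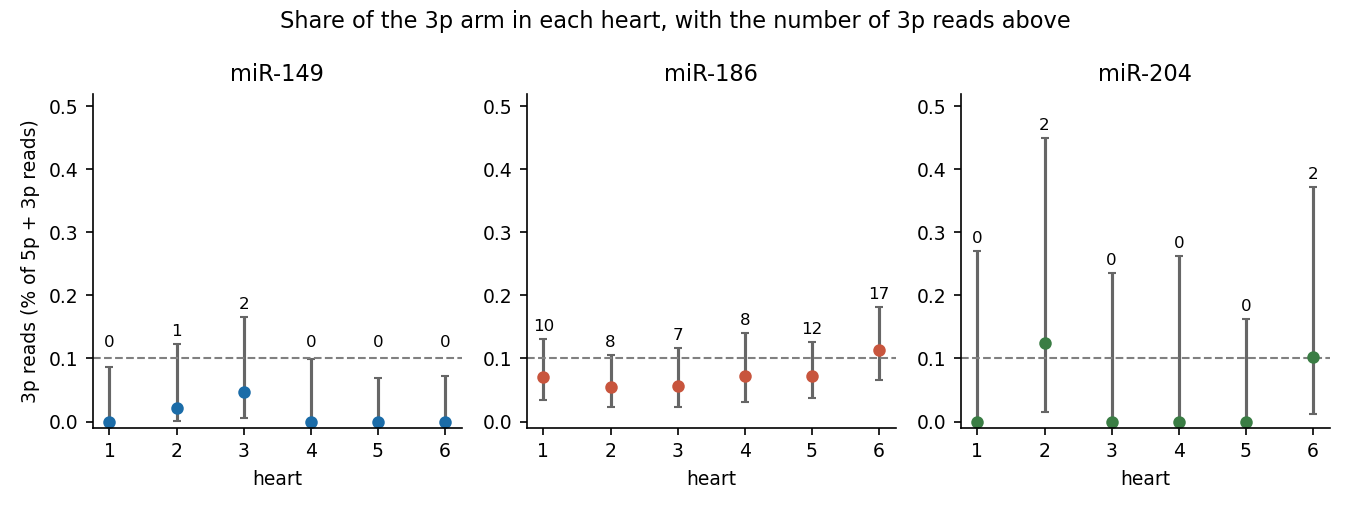
Share of 3p reads among the reads of both arms (y axis, percent) in each heart (x axis), with exact binomial 95% intervals and the number of 3p reads above each; the dashed line marks 0.1%. The intervals of miR-204 are the widest, and the 6 intervals of miR-186 overlap each other.

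The members are part of a larger set of strongly 5p hairpins. Of 213 hairpins that had both arms listed and averaged 10 or more reads per library over both arms, 14 had over 1000 reads of 5p per read of 3p, 12 of them from a single locus. By ratio miR-149 was second, miR-204 eighth and miR-186 eleventh. The first was miR-26a from 2 loci (10027), and miR-10b (6684), miR-451a (6082), miR-146a (5616), miR-192 (3907) and miR-541 (2865, with 1 read of 3p) also lay above miR-204. miR-451a is matured by Argonaute without Dicer, so its 3p entry is no ordinary passenger strand.

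Near the threshold the pooled intervals of some hairpins kept clear of 1000 and those of others did not. They cover counting error only and leave out the spread between hearts. Just inside it lay miR-16 from 2 loci (1265, exact interval 1137 to 1412), miR-100 (1222, 815 to 1929) and miR-125a (1006, 848 to 1202). Just outside it lay miR-191 (880, 810 to 956), miR-351 (835, 454 to 1742) and miR-181d (640, 348 to 1336). The intervals of miR-16 and miR-191 lie wholly on their side of 1000, and those of the other 4 reach across it. A further 121 hairpins had only a 5p entry, 4 of them with at least 1000 reads, and have no ratio. In the opposite direction, 13 hairpins had over 1000 reads of 3p per read of 5p.

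**Figure D3:**
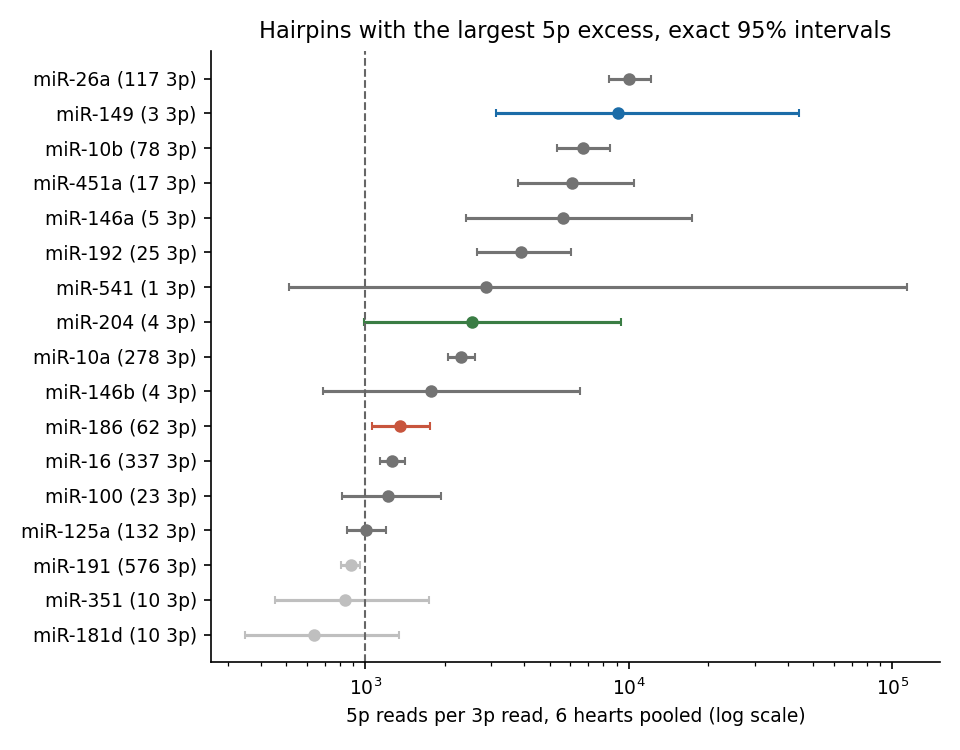
Reads of 5p per read of 3p (x axis, log scale), pooled over 6 hearts, with exact binomial 95% intervals for the 14 hairpins above a ratio of 1000 (dashed line) and the 3 next below it; the 3p reads are in brackets. miR-149 (blue), miR-204 (green) and miR-186 (red) are members, and the intervals are wide where the 3p arm had few reads.

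Hairpins of like abundance differed widely in their arm use. Next to miR-149 (27342 reads of both arms) stood miR-146a with 0.0178% and miR-100 with 0.0817% from the minor arm, but also miR-148b with 1.33%. Next to miR-186 (84009 reads) stood let-7a with 4.42%, miR-101a with 0.469% and miR-92a with 0.155%, but also miR-23a with 0.00847%, a lower share than that of miR-186. Next to miR-204 (10153 reads) stood miR-101b with 0.0400% and miR-152 with 14.2%. The minor arm held 0.0110% of the reads for miR-149, 0.0394% for miR-204 and 0.0738% for miR-186, against a median of 0.469% over the 69 hairpins with at least as many reads as miR-204, itself included. Of those 69, 22 had a minor arm under 0.1%.

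**Figure D4:**
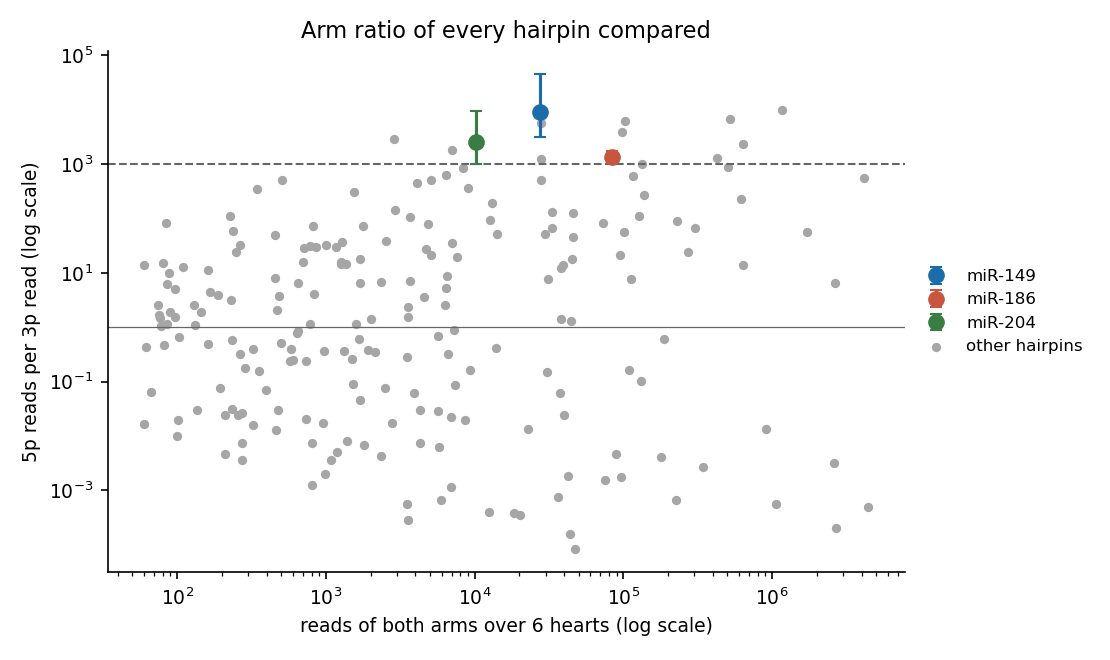
Reads of 5p per read of 3p (y axis, log scale) against the reads of both arms over 6 hearts (x axis, log scale) for the 213 hairpins compared; bars on the members are exact 95% intervals, the dashed line marks 1000 and the solid line equal arms. The members lie at 10153 to 84009 reads, among hairpins whose ratios span several orders of magnitude.

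Neither a first base U in the 5p arm nor fewer G-C pairs at its start was common to all of the 3 members. miR-149-5p and miR-204-5p begin with U, and miR-186-5p begins with C. In RefSeq all of the 3 member 3p arms begin with G, but miR-204-3p begins with C at the counted span. At the counted spans, 7.82% of the 3p arms in the 179 single-locus hairpins folded begin with G. Among 84 single-locus hairpins with at least a 2-fold 5p excess, 58.3% of the 5p arms begin with U, against 17.6% of the 5p arms in 74 with a 3p excess. In the predicted minimum free energy fold, the first 4 bases of miR-186-5p hold 1 G-C pair and those of miR-186-3p hold 4. For miR-149 these numbers are 2 and 3. For miR-204 they are 2 and 2, so the ends of the miR-204 duplex do not differ in G-C pairs. The rest of those 4 bases holds 1 A-U pair and 1 unpaired base in miR-204-5p, and 1 A-U and 1 G-U pair in miR-204-3p. In miR-149-5p the rest holds 1 G-U pair and 1 unpaired base, and in miR-149-3p 1 A-U pair. In miR-186-5p it holds 3 A-U pairs. No share over the other hairpins folded was computed for these kinds of pair, so they are a description only. Fewer G-C pairs at the start of the 5p arm than of the 3p arm were found in 50.0% of the 84 and in 21.6% of the 74 hairpins. Among the 12 single-locus hairpins with a ratio over 1000, members included, 6 had fewer, 2 as many and 4 more. miR-149-3p is 81.8% G and C, the highest of the 3p arms in the 179 single-locus hairpins folded, whose median is 50.0%. The part of base composition in its few reads was not tested.

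In sequence the member arms stood apart from other hairpins, except for miR-204-5p. Among 1004 other RefSeq hairpins, the nearest match to each of the other 5 arms had 6 or 7 mismatches over the length of the arm. miR-204-5p differs from miR-211-5p (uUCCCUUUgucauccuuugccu) by A17U, counted from the 5′ end, and shares its seed. miR-211, known from melanocytes, lies at chr7:64205806-64205911 in an intron of Trpm1, a relative of Trpm3. It had 1, 1, 1, 11, 8 and 1 reads in hearts 1 to 6, so at most 0.786% of the miR-204-5p count (heart 4). That share is below the spread of miR-204-5p between hearts, whose SD was 34.4 CPM around 343 CPM.

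Other miRNAs with a member's seed were few. The seeds of miR-149-5p, miR-186-5p and miR-186-3p occurred in no other RefSeq mouse miRNA of the table used here. miR-204-5p shares its seed with miR-211-5p and miR-7670-3p, and it averaged 343 CPM, against 0.885 CPM for both of these together. miR-149-3p, at a pooled 0.102 CPM, was below the 23.2 CPM that miR-1943-5p and miR-6967-5p, which share its seed, averaged together. miR-7016-5p also shares that seed but has no entry. The RefSeq seed of miR-204-3p is shared by miR-7684-5p, which has no entry either. The seed at the counted span of miR-204-3p was not searched.

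The 3 guides varied between hearts by more than counting noise. In a chi-square test of the 6 counts against the library totals, 249 of 346 miRNAs averaging 10 or more reads were called at an adjusted p under 0.05 (72.0%), and among 207 averaging 100 or more it was 90.3%. A call for an abundant miRNA is thus the usual case. miR-186-5p (adjusted p = 9.33e-26), miR-204-5p (adjusted p = 1.73e-16) and miR-149-5p (adjusted p = 4.81e-12) were called (chi-square test over all miRNAs, Benjamini-Hochberg adjustment). On library totals the call of miR-149-5p rests on heart 3, without which the adjusted p was 0.0574 in the same chi-square test. miR-186-3p did not vary beyond counting noise (adjusted p = 0.674), at a mean of 10.3 reads, where the test finds little. miR-149-3p and miR-204-3p had too few reads to be tested. Differences between hearts and between library preparations cannot be told apart in this spread, since each heart gave 1 library.

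The size of the spread was small. After TMM scaling, which corrects for differences in composition between libraries, the coefficient of variation (SD over mean) was 6.27% for miR-186-5p, 6.46% for miR-149-5p and 9.42% for miR-204-5p. Counting alone would give 0.845%, 1.48% and 2.43%. From the lowest, they held places 21, 24 and 67 among the 207 averaging 100 or more reads, whose median was 12.5%. The biological coefficient of variation that edgeR estimated, which is drawn toward that of other miRNAs, was 11.1%, 11.7% and 13.5% in the same order.

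The guides did not show a common pattern over the hearts. On log2 TMM-scaled CPM, miR-149-5p with miR-186-5p had r = 0.57 (exact permutation p = 0.236, adjusted p = 0.582) and rho = 0.49 (exact p = 0.356, adjusted p = 0.658). miR-149-5p with miR-204-5p had r = 0.31 (exact permutation p = 0.561, adjusted p = 0.582) and rho = 0.26 (exact p = 0.658, adjusted p = 0.658). miR-186-5p with miR-204-5p had r = -0.30 (exact permutation p = 0.582, adjusted p = 0.582) and rho = -0.26 (exact p = 0.658, adjusted p = 0.658). These two-sided tests over 6 hearts, adjusted over 3 pairs, pass for none of the pairs. Without the 2 hearts farthest from the median of the first arm, r was 0.51, 0.69 and -0.58 in that order, over 4 hearts. Leaving out 1 heart in turn, r ran from 0.35 (without heart 5) to 0.70 for miR-149-5p with miR-186-5p, from 0.11 (without heart 3) to 0.75 (without heart 5) for miR-149-5p with miR-204-5p, and from -0.41 to -0.09 (without heart 1) for miR-186-5p with miR-204-5p. The pair of miR-149-5p and miR-204-5p had r = 0.19 without heart 6, and that of miR-186-5p and miR-204-5p had r = -0.19 without heart 2 and -0.14 without heart 5. On library totals in place of TMM scaling, r was 0.25, 0.34 and -0.53 in the same order. Values this uncertain do not show that the guides vary independently.

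**Figure D5:**
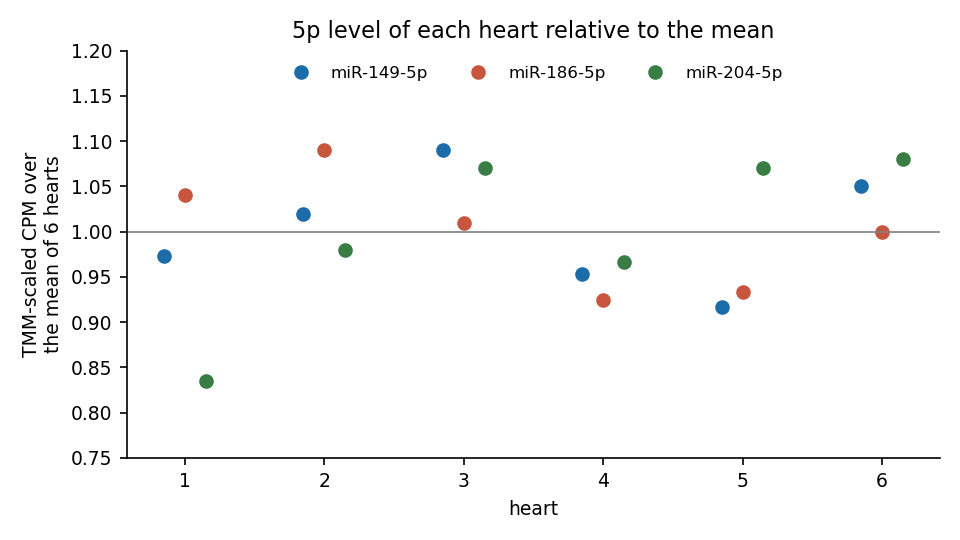
TMM-scaled CPM of each 5p arm divided by its mean over the 6 hearts (y axis), for hearts 1 to 6 (x axis); the axis does not start at 0. miR-204-5p stands at 0.835 of its mean in heart 1, where miR-186-5p stands at 1.04.

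For each guide, the miRNAs of other hairpins with the most similar pattern over the 6 hearts were listed among 206 averaging 100 or more reads. Since these are the highest of 206 values of r over 6 points, they are a description only. For miR-149-5p they were miR-335-3p (r = 0.96), miR-7068-3p (0.94), miR-151-3p (0.92), miR-30e-3p (0.92) and miR-98-3p (0.88). For miR-186-5p they were miR-486-5p (r = 0.95), miR-191-5p (0.95), miR-34a-5p (0.95), miR-148b-3p (0.92) and miR-101b-3p (0.88). For miR-204-5p they were miR-27b-3p (r = 0.94), miR-125a-5p (0.88), miR-3057-5p (0.88), miR-181a-5p (0.85) and miR-148a-3p (0.80). No miRNA stood on more than 1 of these lists. With 5 names from 206 on each, little overlap would arise by chance either, so this is no result about the guides.

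Markers of other cell types also varied between the hearts. Every one of the 27 markers listed for 9 cell types and tissues had a read, and the muscle list (miR-1a-3p, miR-133a-3p, miR-208a-3p and miR-499-5p) held 94127 to 106440 CPM. In heart 1, where miR-204-5p was lowest, the erythroid list (miR-451a and miR-144-3p) stood at 5691 CPM, against 2176 to 5005 CPM in the others, and the liver miR-122-5p at 9.03 CPM, against 16.9 to 74.4 CPM. Of the erythroid list, miR-451a was highest in heart 1 (5266 CPM), but miR-144-3p was highest in heart 2 (533 CPM, against 425 CPM in heart 1). In heart 5, where miR-204-5p was highest and miR-149-5p lowest on library totals, the cartilage list (miR-140-5p and miR-140-3p) stood at 2083 CPM, against 690 to 904 CPM in the others. The pancreas list (miR-217-5p, miR-216b-5p, miR-216a-5p and miR-375-3p) stood at 29.2 CPM in heart 4 and 0.630 to 2.33 CPM in the others, and the epithelial and sensory list at 302 CPM in heart 4 and 45.9 to 99.2 CPM in the others. In that list the excess of heart 4 lay in miR-182-5p (208 CPM) and miR-183-5p (66.8 CPM), while miR-200a-3p was higher in heart 5 (13.3 CPM) than in heart 4 (6.30 CPM). miR-211-5p was also highest in heart 4, at 2.77 CPM, while miR-204-5p stood there at 353 CPM, within the range of the other hearts. The part of these cells in the levels of the members was not tested.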

How the data were processed

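The authors deposited raw read counts, as whole numbers for each arm at each locus and without normalization, in 1 file per heart with the columns name, location and count per the file headers. The build GRCm38 is named, per the submitters' processing notes, which also list DESeq and edgeR with no role. Which aligner and counter were used, and how reads matching more than 1 locus were treated, is not given in the sources used here. Per the labels' protocols, libraries were made with a TruSeq small RNA kit from Trizol RNA.

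Of 76 antisense entries, 38 went to a hairpin that GENCODE places on the opposite strand, and the other 38, at most 0.000706% of a library, were left out. The members had no antisense entry. Loci of one mature name were summed. CPM used library totals, 3966169 to 6007322 counts, at which 3 counts, the limit that a count of 0 allows, equal 0.499 to 0.756 CPM. Ratios have exact (Clopper-Pearson) and pooled levels exact Poisson 95% intervals. Spread was tested by chi-square with Benjamini-Hochberg adjustment over all miRNAs averaging 10 or more reads, and described by edgeR 4.0.16 after TMM scaling. Log2 CPM had a prior count of 1. Permutation tests over hearts were exact. R 4.3.3, DESeq2 1.42.0 (size factors as an alternative), Python 3.11.15, scipy 1.17.1 and RNAfold 2.7.2 were used. RNAfold ran on 179 of 183 single-locus hairpins from GENCODE M21, with the arms at the files' spans. The chi-square and edgeR steps were tested on simulated data.

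The members and lists were chosen with earlier results of these data known. The named miRNAs are both arms of the members, miR-211, hairpins over or next to a ratio of 1000, the 5 nearest patterns of each guide, and the 3 hairpins next above and below each member in reads, of which examples are given. The hearts are separate samples per the labels, and that they are separate mice is taken from the numbered titles, so p-values concern these samples only. Those of the chi-square test set the spread between the samples against counting noise. No library pair agreed within sampling noise (chi-square over its degrees of freedom at least 55.9).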

Additional observations from a re-analysis of the deposited data

Results flagged for a closer look

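miR-186-3p was highest in heart 6, at 3.03 CPM from 17 reads, against 1.61 to 2.10 CPM in the other 5 hearts. The gap from heart 6 to the next heart was 0.656 of the whole range, above Dixon's 95% critical value for 6 samples. For the 3p share of the miR-186 reads, 0.113% in heart 6 against 0.0540% to 0.0724%, that fraction was 0.687. The flags rest on the same 17 reads, and the chi-square test found no spread of miR-186-3p beyond counting noise (adjusted p = 0.674). Chance flags about 1 in 20 groups, and 9 measures were examined.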

How the results depend on the processing

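No paired analysis was possible because the 6 hearts form 1 group. Of 173 alternatives over 19 results, 170 kept the direction and the side of the threshold or stayed within the stated error. The exceptions were miR-149-5p, whose spread was no longer called on library totals without heart 3 (adjusted p = 0.0574 in the chi-square test, 2e-12 to 0.0574 over the hearts left out in turn), and the plain coefficient of variation, 6.46% for miR-149-5p and 6.27% for miR-186-5p, in place of the shrunken edgeR value. Leaving out each heart in turn gave ratios of 7342 to 22999 for miR-149, 1280 to 1531 for miR-186 and 1967 to 4274 for miR-204, and the mean of miR-149-3p was 0.0403 CPM without heart 3, and that of miR-204-3p 0.0714 CPM without heart 2 and 0.0805 CPM without heart 6. Correlations between the 5p arms moved by over 1.5 times on library totals (2 of the 3 pairs) and without single hearts (all of the 3 pairs), and passed under no alternative run. Scaling by TMM or DESeq2 size factors moved no level of a member beyond its SD. The alternative with antisense entries added to the arms gave no value, since the members have none, and miR-186-3p had no spread test at a mean of at least 100 reads or without heart 6, where its mean was below 10 reads. The 3p arms of miR-149 and miR-204 are limited by depth, with 3 and 4 reads in all. The count of miR-204-3p may also depend on its shifted span, which was not tested.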
